A study of Homo sapiens with 4 samples.

Results

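The domains described here are the topologically associating domains that Hi-C placed on human chromosomes 16, 17, 19, 20 and 22, in 4 libraries of H1 human pluripotent stem cells (hPSCs). Every domain and every boundary region listed on these 5 chromosomes was taken, which gave 1572 of the 15427 domains and 218 of the 2439 boundary regions of the series, summed over the libraries. The chromosomes were chosen by the number of domains per chromosome in these same libraries, so all differences between the groups are given below as descriptions, with no test. H1 cells are a widely used line derived from a human embryo. In Hi-C, fixed chromatin is digested with a restriction enzyme (here HindIII), fragment ends near each other in space are ligated, and the ligation products are read as pairs.

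In 2 libraries (shHNRNPU replicate 1 and replicate 2) HNRNPU was targeted by a short hairpin RNA delivered with a lentivirus. HNRNPU is a nuclear RNA-binding protein also known as scaffold attachment factor A. The other 2 libraries (shLUC replicate 1 and replicate 2) came from cells with a hairpin against luciferase, an insect enzyme that human cells lack, and were the control. Both groups were infected with virus made in 293T cells, selected with puromycin, grown in mTeSR1 on Matrigel and fixed with formaldehyde, and they shared the same cell line. The labels do not say whether the replicates came from separate infections or cultures, and neither the HNRNPU level reached nor the read depth of a library can be read from the interval files, so their part in any difference below was not tested.

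A domain of this kind is a stretch of chromosome whose sequences contact each other more often than they contact the neighbouring stretches. Cohesin, a ring complex that extrudes loops of chromatin, and CTCF, a DNA-binding protein that halts it, set many of the borders, and borders also tend to lie near active genes. Gene-rich chromosomes are replicated early, lie towards the nuclear interior and hold much transcribed chromatin of the open A compartment, to which HNRNPU is known to bind together with RNA.

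The name gene-rich was checked against the RefSeq annotation (GRCh38.p14). Chromosome 19 held 24.2 protein-coding genes per Mb outside gaps, chromosome 17 held 14, chromosome 22 held 11.3, chromosome 16 held 10.4 and chromosome 20 held 8.38. These took ranks 1, 2, 3, 4 and 7 of the 22 autosomes. Chromosome 11, with 9.69 genes per Mb, and chromosome 1, with 8.92, were denser than chromosome 20, so the set is not simply the 5 densest chromosomes. Together the 5 chromosomes spanned 347.56 Mb and carried 4388 of the 19862 annotated coding genes.

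At a few borders named below, the start site of a coding gene lay within 40 kb, that is, within 1 bin of the domain calls. Of the lost, gained and kept borders named first on each chromosome, 6 had such a start site. The 250 bases before the nearest one are printed for 4 of these. They show the gene-side sequence at borders lost in both shHNRNPU libraries (ZNF205 and ULK2), gained in both (SYCP2) and kept in all libraries (UBL5). They come from RefSeq, build GRCh38.p14, run 5′ to 3′ on the gene's strand, and capitals mark CG dinucleotides. ZNF205 (a zinc finger protein) is at chr16:3112336-3112585 on the plus strand, ULK2 (an autophagy kinase) at chr17:19867937-19868186 on the minus strand, SYCP2 (a protein of the meiotic synaptonemal complex) at chr20:59933638-59933887 on the minus strand, and UBL5 (a ubiquitin-like protein) at chr19:9827668-9827917 on the plus strand.
ZNF205: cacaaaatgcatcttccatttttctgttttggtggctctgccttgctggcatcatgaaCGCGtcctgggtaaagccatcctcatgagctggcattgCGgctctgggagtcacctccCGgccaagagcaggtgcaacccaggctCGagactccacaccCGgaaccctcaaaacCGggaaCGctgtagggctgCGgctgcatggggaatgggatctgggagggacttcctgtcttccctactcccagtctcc
ULK2: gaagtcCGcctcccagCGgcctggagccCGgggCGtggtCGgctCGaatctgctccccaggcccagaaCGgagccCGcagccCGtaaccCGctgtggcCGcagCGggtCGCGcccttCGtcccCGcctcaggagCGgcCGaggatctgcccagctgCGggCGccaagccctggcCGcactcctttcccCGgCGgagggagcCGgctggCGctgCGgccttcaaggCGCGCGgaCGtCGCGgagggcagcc
SYCP2: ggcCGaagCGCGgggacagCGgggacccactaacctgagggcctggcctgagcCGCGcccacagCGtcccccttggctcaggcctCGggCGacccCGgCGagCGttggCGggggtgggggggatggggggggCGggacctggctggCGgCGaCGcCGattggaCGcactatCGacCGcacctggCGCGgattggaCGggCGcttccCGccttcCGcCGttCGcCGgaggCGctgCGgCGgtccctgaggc
UBL5: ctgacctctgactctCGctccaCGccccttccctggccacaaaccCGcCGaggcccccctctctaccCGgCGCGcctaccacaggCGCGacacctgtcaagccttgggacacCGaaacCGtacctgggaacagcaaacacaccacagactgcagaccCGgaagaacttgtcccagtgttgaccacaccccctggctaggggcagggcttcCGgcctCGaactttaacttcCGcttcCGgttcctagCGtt
ZNF205 had 9 CG dinucleotides, ULK2 32, SYCP2 33 and UBL5 17. The median was 17 over the 15841 coding genes with a promoter in the table and 18 on the 5 chromosomes. The windows not printed, SP2 and HORMAD2 at the other gained borders, had 17 and 22. The HindIII site AAGCTT reads the same on both strands. It was present in 4.55% of all those windows, in 3.29% of those on the 5 chromosomes and in none of the 4 printed. A border is known only to within a 40 kb bin, so these windows show what lies near it and are not the border itself.

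Next, the domains were counted. The controls (shLUC replicate 1, then replicate 2) had 436 and 430 domains on the 5 chromosomes, shHNRNPU replicate 1 had 415 and shHNRNPU replicate 2 had 291. Both shHNRNPU libraries thus lay below both controls, by very different amounts: replicate 1 had 95.8% of the control mean and replicate 2 had 67.2%. The group means were 433 ± 4.24 domains (SD, n = 2) for shLUC and 353 ± 87.7 (SD, n = 2) for shHNRNPU, a difference of -80. Without shHNRNPU replicate 2 the difference was -18, and without replicate 1 it was -142. Over the other 17 autosomes the same ratios were 98.8% and 88.5%, and over the gene-poor chromosomes 4, 13 and 18 they were 101% and 92.9%.

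The 5 chromosomes did not share a pattern in replicate 1 but did in replicate 2. Chromosome 16 had 115 domains in each control, 101 in shHNRNPU replicate 1 and 77 in replicate 2. Chromosome 17 had 112 and 108 in shLUC, then 95 and 76. In both of these the shHNRNPU libraries were below both controls, and replicate 1 had 87.8% and 86.4% of the control mean. Chromosome 20 had 99 and 102 domains in shLUC against 103 and 71 in shHNRNPU. Chromosome 22 had 59 and 60 against 65 and 36. Chromosome 19 had 51 and 45 against 51 and 31. On these 3 chromosomes replicate 1 was equal to or above the higher control, whereas replicate 2 was the lowest library on all 5, from 60.5% of the control mean on chromosome 22 to 70.6% on chromosome 20. The other 17 autosomes ran from 80.9% (chromosome 3) to 103% in replicate 2, with a median of 87.6%, and from 94.8% (chromosome 14) to 108% in replicate 1. The gap to these values is part of how the 5 were chosen and nothing is read from it.

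**Figure D1:**
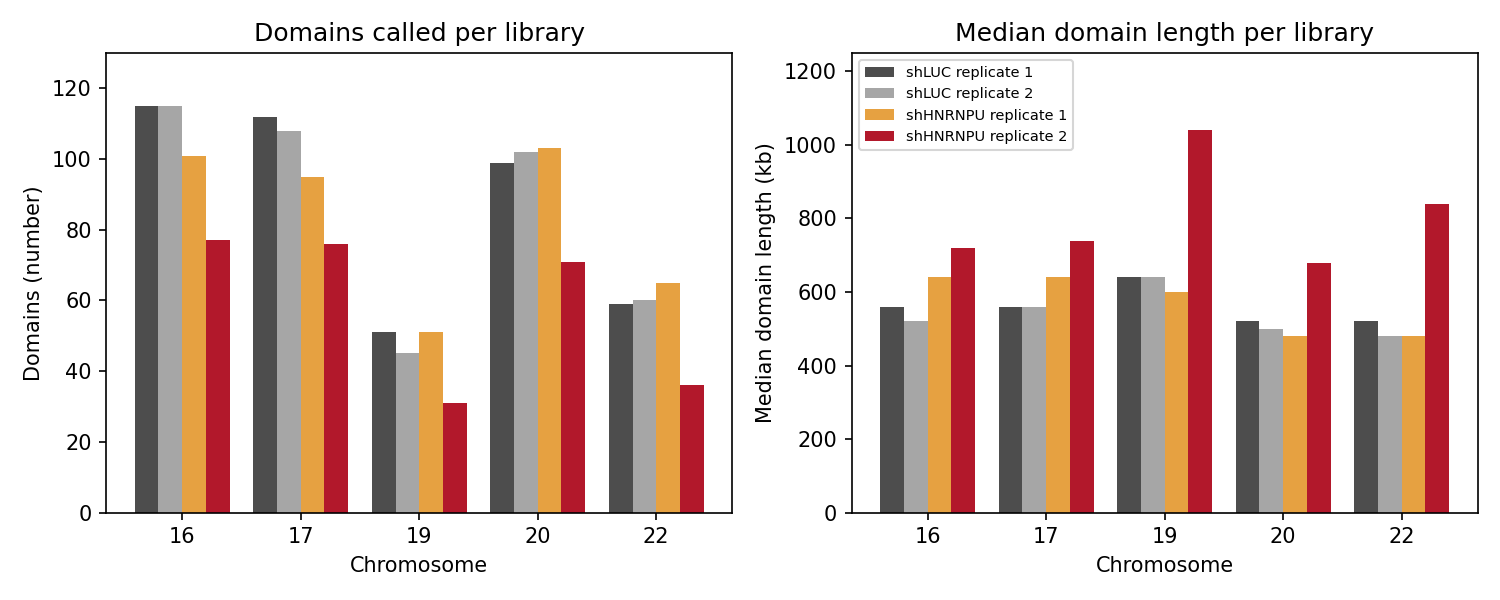
Number of domains (left) and median domain length in kb (right) on each of the 5 chromosomes, 1 bar per library. On every chromosome the shHNRNPU replicate 2 bar is the shortest on the left, from 31 to 77 domains, and the tallest on the right, from 680 to 1040 kb, while replicate 1 stands below both controls in number only on chromosomes 16 and 17.

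Across the 22 autosomes the ratio of domains to the control mean was set against gene density as a description. The points share the same 4 libraries and are not independent samples, so no p is given. In shHNRNPU replicate 2 Pearson's r was -0.68 and Spearman's rho -0.56, and r was -0.68 without chromosome 19, the densest. In replicate 1 r was 0.10 and rho 0.12, and r was -0.21 without chromosome 19. The same ratio between the shLUC libraries (replicate 2 over replicate 1) gave r = -0.38, and -0.13 without chromosome 19. Without the 5 chromosomes, a setting added after seeing the data, r was -0.15 and rho -0.13 in replicate 2 and r was 0.18 in replicate 1 (n = 17), so the relation in replicate 2 rested on the chromosomes that had been chosen by the same domain numbers.

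**Figure D2:**
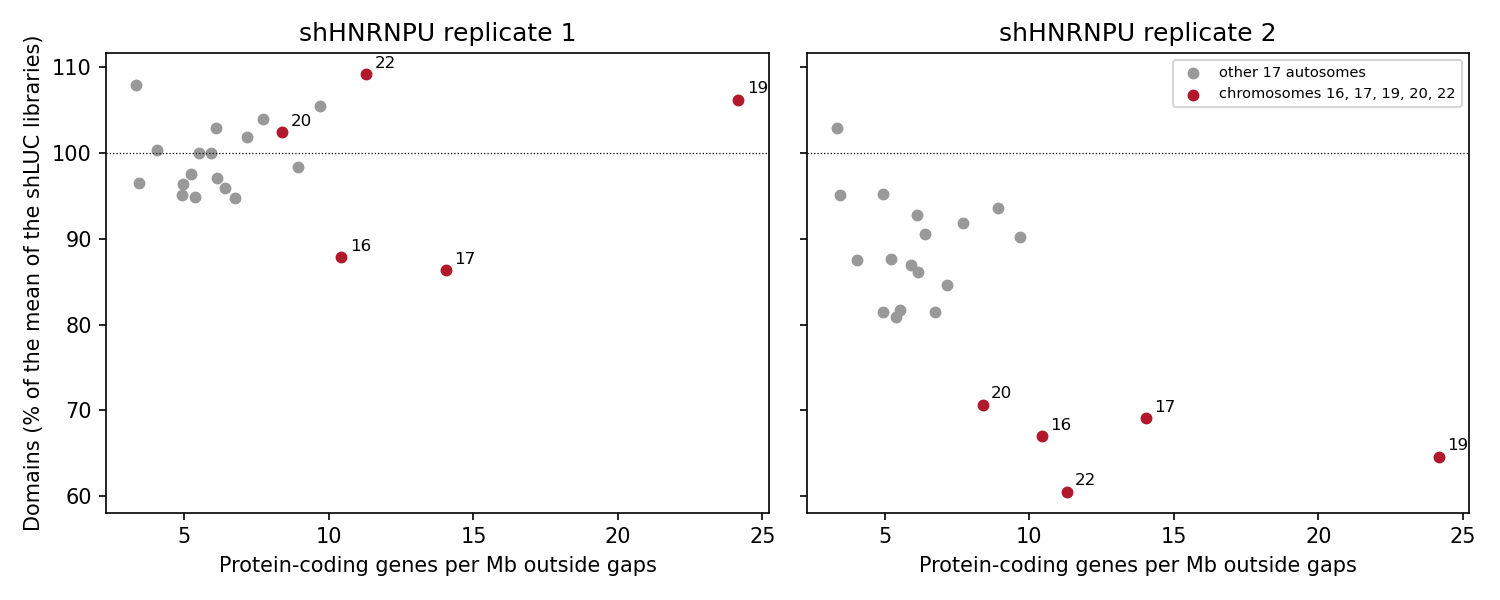
Domains in each shHNRNPU library as a percent of the mean of the shLUC libraries (y axis) against protein-coding genes per Mb outside gaps (x axis), 1 point per autosome, red for the 5 chromosomes described here. In replicate 2 the red points, which were chosen by these numbers, lie between 60.5% and 70.6%; in replicate 1 they lie between 86.4% and 109%.

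Domain length moved the other way. The median domain on the 5 chromosomes measured 560 and 520 kb in the controls. It was 560 kb for shHNRNPU replicate 1 and 720 kb for replicate 2. Replicate 1 therefore overlapped the controls and replicate 2 did not. The group means of the medians were 540 ± 28.3 kb (SD, n = 2) and 640 ± 113 kb (SD, n = 2), and the difference of 100 kb was 20 kb without replicate 2. By chromosome the replicate 2 median was 720 kb on chromosome 16, 740 kb on 17, 1040 kb on 19, 680 kb on 20 and 840 kb on 22, above both controls on each. The control medians ran from 480 to 640 kb. Replicate 1 was above both controls on chromosomes 16 and 17, with 640 kb on each, below both on chromosome 19 with 600 kb and on 20 with 480 kb, and equal to the lower one on 22.

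Replicate 2 had fewer domains in each length class below 2 Mb and more above it. Domains from 240 to 400 kb numbered 82 and 74 in the controls, 80 in shHNRNPU replicate 1 and 33 in replicate 2. Domains from 440 to 960 kb numbered 210 and 211 in shLUC, 187 in replicate 1 and 111 in replicate 2. The shortest class, up to 200 kb, held 50 and 57 domains in shLUC, 52 in replicate 1 and 38 in replicate 2. All 3 classes thus had fewer domains in replicate 2 than in the other libraries. So had, by less, the class from 1000 to 1960 kb, with 77 and 71 in shLUC, 77 in replicate 1 and 65 in replicate 2. These are numbers, and replicate 2 had fewer domains in all. As a share of its domains, those up to 200 kb made up 11.5% and 13.3% in shLUC, 12.5% in replicate 1 and 13.1% in replicate 2. Domains of 1 Mb or longer made up 21.6% and 20.5% in shLUC, 23.1% in replicate 1 and 37.5% in replicate 2. Domains of 2 Mb or longer numbered 17 and 17 in shLUC, 19 in replicate 1 and 44 in replicate 2, and they held 16.7%, 18.3%, 18.9% and 45.2% of all domain sequence. On the other 17 autosomes such domains held 10.7% and 11.03% of the domain sequence in shLUC, 10.3% in replicate 1 and 18.6% in replicate 2. Chromosome 20 had no domain of 2 Mb in either control, 1 in replicate 1 and 6 in replicate 2. Chromosome 19 already had 9 and 8 in the controls, which held 50.3% and 53.8% of its domain sequence, while in replicate 1 its 7 such domains held 47.6%, below both controls, and in replicate 2 its 12 held 78.4%.

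**Figure D3:**
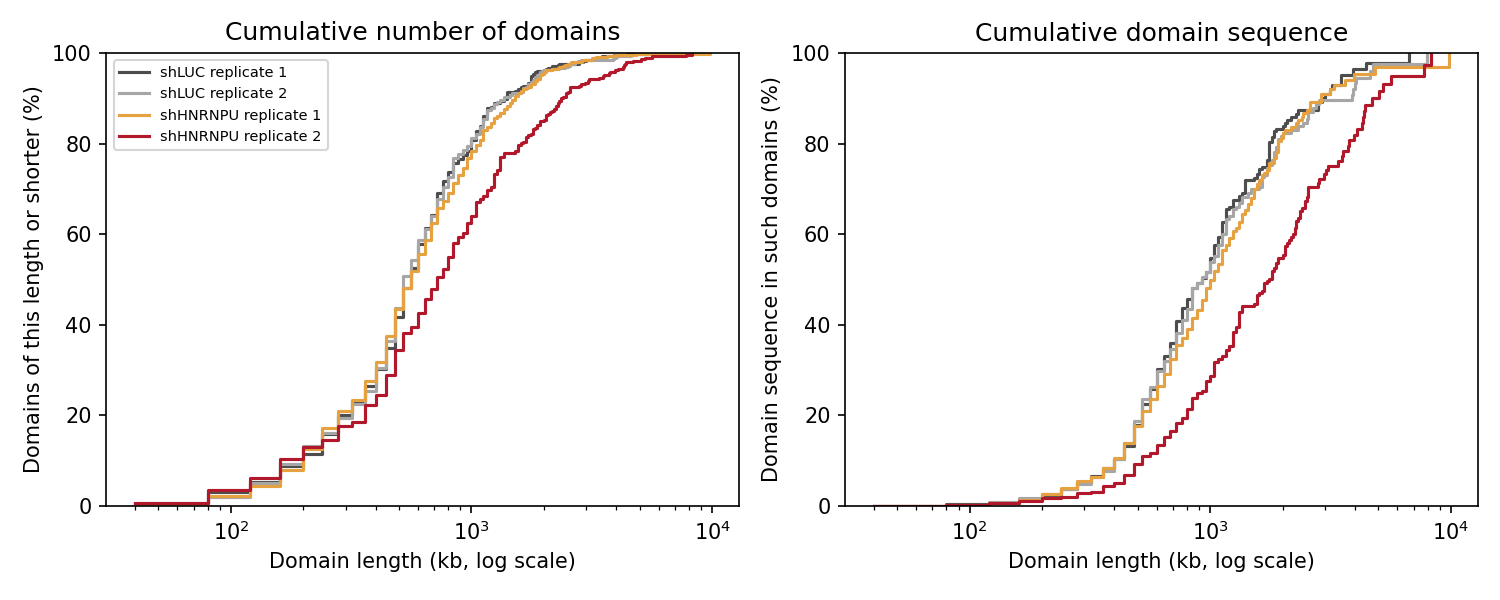
Cumulative share of domains (left) and of domain sequence (right) against domain length in kb on a log axis, for the 5 chromosomes together, 1 line per library. The lines of both shLUC libraries and shHNRNPU replicate 1 run close together, and the replicate 2 line lies to their right above about 200 kb; its domains of 2 Mb or longer hold 45.2% of its domain sequence.

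Because coding genes are packed on these chromosomes, a longer domain takes in more of them. The mean number of coding genes whose midpoint lay in a domain was 9.54 and 9.73 in the controls, 10.1 in shHNRNPU replicate 1 and 14.7 in replicate 2. The median was 4 in all libraries. The most crowded domain held 175 and 213 genes in the controls, 280 in replicate 1 and 272 in replicate 2, all on chromosome 19. On that chromosome the mean per domain was 27.3 and 30.7 in shLUC, 27.4 in replicate 1 and 44.9 in replicate 2. Domains with no coding gene made up 13.3% in both controls, 15.9% in replicate 1 and 18.9% in replicate 2. The other 17 autosomes had a mean of 4.02 and 3.96 genes in shLUC, 4.04 in replicate 1 and 4.68 in replicate 2.

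Boundary regions are stretches of 1 or more bins that were listed apart from domains and from gaps; how the caller told the 3 kinds apart is not given in the sources used here. On the 5 chromosomes there were 65 and 58 in the controls, 60 in shHNRNPU replicate 1 and 35 in replicate 2, or 8.80 and 7.56 Mb, 8 Mb and 4.28 Mb in total. Replicate 1 lay between the controls and replicate 2 below both. The means were 61.5 ± 4.95 (SD, n = 2) and 47.5 ± 17.7 (SD, n = 2), a difference of -14 that was -1.50 without replicate 2. Their median length was 120 kb in each library. Gaps, which could take sequence away from domains, covered 23.04 and 22.6 Mb in shLUC, 22.6 Mb in replicate 1 and 22.5 Mb in replicate 2, so the libraries differed little in this respect.

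By chromosome the boundary regions did not follow 1 order. Chromosome 16 had 17 and 7 in the controls, 9 in shHNRNPU replicate 1 and 12 in replicate 2. Chromosome 17 had 14 and 15 in shLUC, 22 in replicate 1 and 11 in replicate 2. On chromosome 16 the controls differed from each other by more than either differed from the shHNRNPU libraries. Chromosome 20 had 17 and 18 against 14 and 5, chromosome 22 had 11 and 10 against 12 and 5, and chromosome 19 had 6 and 8 against 3 and 2. Chromosomes 19 and 20 were thus the only 2 of the 5 on which both shHNRNPU libraries were below both controls.

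A boundary region of 1 library was seldom one in the next. Of the 65 of shLUC replicate 1, 15 overlapped a boundary region of shLUC replicate 2, 41 met a domain border with no such region and 9 lay inside a domain. In shHNRNPU replicate 1 the same 65 met 20 regions, 37 bare borders and 8 domain interiors. In replicate 2 they met 6 regions, 32 bare borders, 26 domain interiors and 1 gap. As shares, 23.1% overlapped a region and 13.8% lay inside a domain of shLUC replicate 2, against 28.4% and 8.30% on the other 17 autosomes, and 9.23% and 40% did so in shHNRNPU replicate 2, against 19.6% and 20.7%. Of the 58 regions of shLUC replicate 2, 10 lay inside a domain of shLUC replicate 1, 5 inside a domain of shHNRNPU replicate 1 and 15 inside one of replicate 2. A single region was present in all 4 libraries, at chr17:56800001-56960000 in shLUC replicate 1, with ends that differed by at most 1 bin. It overlapped C17orf67, DGKE (a diacylglycerol kinase), TRIM25 (a ubiquitin ligase of antiviral signalling) and COIL, the scaffold protein of Cajal bodies.

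Borders, that is, the start and end positions of domains, were then matched between libraries one to one within 1 bin. There were 553 and 534 borders in the controls, 508 in shHNRNPU replicate 1 and 373 in replicate 2. The shLUC libraries shared 343 borders, 62.0% and 64.2% of their lists, and the Jaccard index (shared over all distinct borders) was 0.461. Replicate 1 of shHNRNPU stood almost as close to the controls, with indices of 0.442 and 0.441. Replicate 2 gave 0.346 and 0.36 against the controls and 0.37 against shHNRNPU replicate 1. The index is lower where 1 list is shorter: of the 373 borders of replicate 2, 63.8% were found in shLUC replicate 1, 64.3% in shLUC replicate 2 and 63.8% in shHNRNPU replicate 1, close to the share within shLUC. The borders that replicate 2 did have were thus found in each other library about equally often. On the other 17 autosomes the indices were 0.518 within shLUC, 0.513 and 0.515 for replicate 1 against the controls, 0.437 and 0.433 for replicate 2, and 0.442 within shHNRNPU.

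Of the 343 borders that both controls had, 185 (53.9%) were found in both shHNRNPU libraries, 85 (24.8%) in replicate 1 only, 21 (6.12%) in replicate 2 only and 52 (15.2%) in neither. Replicate 1 held 78.7% of them (95% Wilson interval 74.1 to 82.7%, counting error only) and replicate 2 held 60.1% (54.8 to 65.1%). On the other 17 autosomes, with 2803 such borders, the shares were 82.9% and 71.9%. Chromosome 17 stood out in replicate 1: it kept 64.3% of its 84 borders, against 80.6% to 85.7% on the other 4 chromosomes. In replicate 2 the shares were 66.7% on chromosome 16, 57.1% on 17, 48.4% on 19, 58.3% on 20 and 63.0% on 22. Chromosome 19 had the lowest, though with only 31 such borders and an interval of 32.0 to 65.2%.

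**Figure D4:**
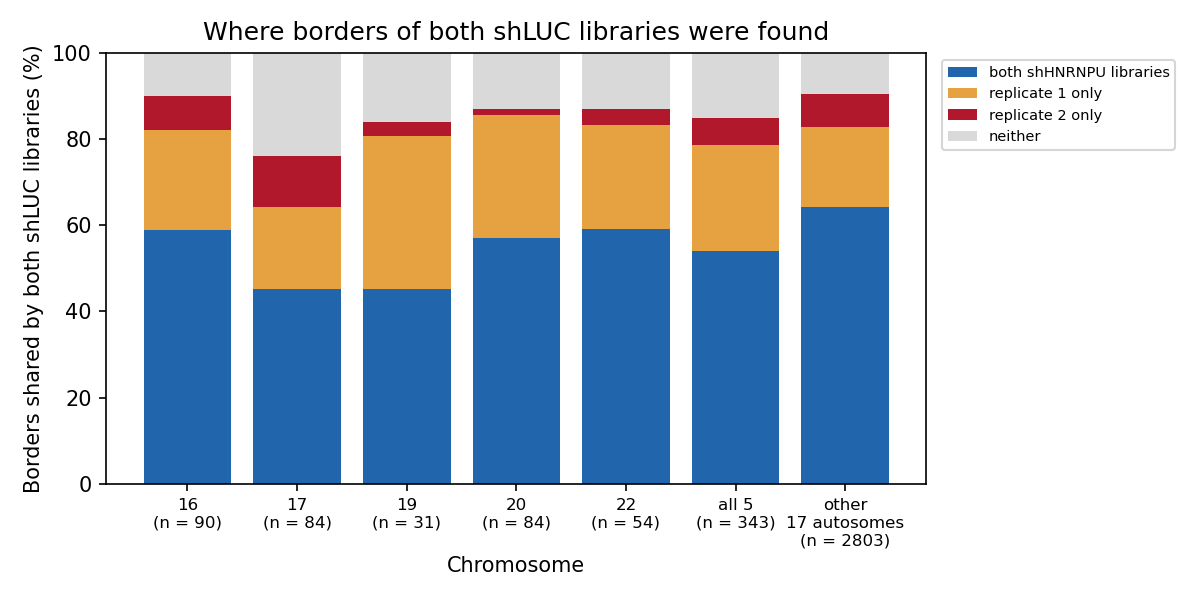
Share of the borders present in both shLUC libraries (y axis, percent) that were found within 1 bin in both shHNRNPU libraries, in 1 of them or in neither, for each of the 5 chromosomes, for all 5 and for the other 17 autosomes, with the number of borders under each bar. The share found in both was 45.2% on chromosomes 17 and 19 and between 57.1% and 59.3% on 16, 20 and 22, against 64.4% on the other autosomes.

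Each library also missed borders that the other 3 had. Over all chromosomes the share missed was 12.1% in shLUC replicate 1, 12.2% in shLUC replicate 2, 12.9% in shHNRNPU replicate 1 and 25.8% in shHNRNPU replicate 2. On the 5 chromosomes it was 25 of 203 (12.3%), 26 of 198 (13.1%), 27 of 199 (13.6%) and 87 of 259 (33.6%). The first 3 libraries were alike, and replicate 2 missed more on each of the 5, from 28.6% on chromosome 16 to 44.0% on chromosome 19. Borders seen in 1 library alone made up 19.9% and 18.4% of the control lists, 17.9% in replicate 1 and 17.96% in replicate 2. By chromosome the share in replicate 2 ran from 7.41% on chromosome 22 to 37.5% on chromosome 19, and it was above those of the other 3 libraries on chromosomes 19 and 20. Over all chromosomes the shares were 15.1% and 14.6% in shLUC, 14.3% in replicate 1 and 16.2% in replicate 2.

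Lost borders were those at which the controls matched within 1 bin while no border of either shHNRNPU library lay within 3 bins, and gained borders were the reverse. Over all chromosomes 5.99% of the borders shared by the controls were lost and 2.94% of those shared by the shHNRNPU libraries were gained. On the 5 chromosomes 30 of 343 (8.75%) were lost and 3 of 238 (1.26%) gained. Both counts came from the same lists that chose the chromosomes and nothing is read from their distance to the background. The 30 lost borders were 8 of 90 (8.89%) on chromosome 16, 12 of 84 on 17 and 2 of 31 (6.45%) on 19. On chromosome 20 they were 4 of 84 (4.76%) and on 22 they were 4 of 54 (7.41%). Chromosome 17, with 12 of 84 (14.3%), had the highest share. The 3 gained borders lay on chromosomes 17, 20 and 22.

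The lost border farthest from any shHNRNPU border was at position 3120000 of chromosome 16, with 23 coding genes within 200 kb. The nearest shHNRNPU border was 920 kb away. In shHNRNPU replicate 1 the position lay inside a domain at chr16:2200001-5080000 and in replicate 2 inside one at chr16:1360001-5640000. Genes on either side of it include CLDN6, a claudin of pluripotent cells, ZSCAN10, a zinc finger factor of embryonic stem cells, and MEFV, the pyrin gene. The domain of replicate 1 also held CREBBP, which encodes the histone acetyltransferase CBP. On chromosome 17 the farthest lost border was at 19880000 and 19840000 in the controls, 600 kb from the nearest shHNRNPU border. It lay beside ULK2, whose promoter is printed above, and inside the shHNRNPU domains chr17:19240001-21840000 (replicate 1) and chr17:18200001-21040000 (replicate 2).

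On chromosome 19 the single lost border away from gaps was at 42000000 and 41960000, 560 kb from the nearest shHNRNPU border, among CEACAM3, RPS19 (a ribosomal protein) and CD79A (part of the B cell receptor). On chromosome 20 it was at 44080000, 640 kb away, near TOX2, JPH2 (a junctophilin of heart muscle) and OSER1. On chromosome 22 it was at 27360000 and 27400000, 480 kb away, with no coding gene within 200 kb. That border lay inside chr22:26680001-27880000 in both shHNRNPU libraries, so there the knockdown libraries had an identical domain across it. The other named pairs of shHNRNPU domains had different ends. Among lost borders away from gaps but nearer to a shHNRNPU border, those at chromosome 16 position 13320000 and chromosome 22 position 25360000 also lay inside an identical domain. These domains were chr16:12840001-13880000 and chr22:25200001-25800000.

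The gained borders were 3. On chromosome 17 it was at 47920000 in both shHNRNPU libraries, 160 kb from the nearest control border, between genes that include TBX21 (a T cell transcription factor), SP2 and CBX1 (heterochromatin protein HP1 beta). On chromosome 22 it was at 30120000, also 160 kb away, beside LIF and OSM, which encode related cytokines. On chromosome 20 it was at 59920000 and 59960000, 400 kb away, at SYCP2 and CDH26. No gained border was called on chromosomes 16 and 19, where the shHNRNPU libraries shared 64 and 19 borders.

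At the other end, 88 borders sat in the same bin in all 4 libraries and 172 of the 553 of shLUC replicate 1 (31.1%) were within 1 bin in the other 3. That share was 42.2% on the other 17 autosomes. Of the 436 domains of shLUC replicate 1, 14 (3.21%) were identical in all 4 libraries, against 2.71% on the other 17 autosomes, and the borders in the same bin in all 4 made up 15.9%, against 15.7%. Both shares were close to those of the other autosomes. Of the 14 domains, 6 were on chromosome 22, 4 on 20, 2 on 16 and 1 each on 17 and 19. Among the borders in the same bin and away from gaps, those between the longest domains of shLUC replicate 1 were at 22520000 on chromosome 16 (CDR2 and NPIPB5), 23200000 on 17 (no coding gene within 200 kb), 9840000 on 19 (UBL5 and OLFM2), 26640000 on 20 (no coding gene within 200 kb) and 26360000 on 22 (SEZ6L, ASPHD2 and HPS4). The border at 26640000 on chromosome 20 had neighbours of the same length, 200 kb and 1880 kb, in all 4 libraries. The longer neighbour, chr20:26640001-28520000, held no coding gene. In shHNRNPU replicate 1 the domain after 23200000 on chromosome 17, of 3.96 Mb, also held none. How well reads can be placed at such sites, or in the identical domains of chromosome 22, was not tested. Nothing is therefore read from the equal calls there. The border at 9840000 on chromosome 19 stayed in place while the domain before it measured 640 kb, 7960 kb, 9800 kb and 4080 kb in shLUC replicate 1 and 2 and shHNRNPU replicate 1 and 2.

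Kept and missing borders differed in the genes around them. Borders of both controls that were found in both shHNRNPU libraries had a mean of 3.45 coding genes within 200 kb on either side, and 31.9% of those 185 had none. The 85 found in replicate 1 only had a mean of 6.38, the 21 found in replicate 2 only had 5.48 and the 52 found in neither had 6.94, with 3.85% of these lacking a gene. Of the 88 shared control borders within 3 bins of a gap, 70 were found in replicate 2, against 136 of the 255 farther away. Away from gaps the means were 3.58 genes for the 123 borders kept in both and 6.05 for the 42 found in neither. All bin positions of the 5 chromosomes gave a mean of 5.04 genes and 24.8% without one. By chromosome, borders found in neither library against those kept in both had 11.9 against 2.72 genes on chromosome 16, 6.55 against 5.37 on 17, 10 against 3.64 on 19, 3.64 against 3.56 on 20 and 4.71 against 2.12 on 22. On chromosome 20 the means were nearly equal, and the borders found in neither numbered only 5 to 20 per chromosome. The means on the other 17 autosomes were 2.76 for borders kept in both, 3.61 and 3.24 for those in 1 library only and 4.26 for those in neither. All bin positions there gave a mean of 2.31 genes and 33.2% without one, against 20.5% of the kept borders. Kept borders thus lay below the mean of all positions on the 5 chromosomes and above it on the other 17.

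To see where along the chromosomes borders were missing, they were counted in 72 windows of 5 Mb. Over all windows of the autosomes, 45.7% had fewer borders in shHNRNPU replicate 2 than in both controls and 16.2% had more, and for replicate 1 it was 25.7% and 19.1%. On the 5 chromosomes 47 windows (65.3%) had fewer in replicate 2 and 4 (5.56%) had more. In replicate 1, 22 (30.6%) had fewer and 13 (18.1%) had more, near the shares over all autosomes. In 17 windows both shHNRNPU libraries were below both controls, 7 of them on chromosome 16, 6 on 17, 2 on 22 and 1 each on 19 and 20. In 2 windows, both on chromosome 16, they were above. Windows low or high in both shHNRNPU libraries were not counted on the other autosomes, so nothing is read from these counts.

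In the 14 windows with up to 19 coding genes there were 72 and 79 borders in the controls, 74 in shHNRNPU replicate 1 and 74 in replicate 2, 98.0% of the control mean in each. In the 27 windows with 20 to 59 genes the counts were 240 and 203 in shLUC, 219 in replicate 1 (98.9%) and 160 in replicate 2 (72.2%). In the 17 windows with 60 to 99 genes they were 147 and 165, then 142 (91.03%) and 91 (58.3%). In the 14 windows with 100 genes or more they were 91 and 84, then 70 (80%) and 47 (53.7%). The share of control borders was therefore lower in each denser class in replicate 2, and lower in the 2 densest classes in replicate 1. Many borders lie within 3 bins of a gap listed in any library. From the class with fewest genes to the densest, 26 and 28, 33 and 29, 32 and 38, and 37 and 23 control borders did so. The gap lists differed by library, with 59 and 53 intervals in shLUC, 44 in shHNRNPU replicate 1 and 53 in replicate 2. Counting only borders farther from gaps, a choice made after seeing the data, replicate 2 had 92.8%, 72.4%, 46.3% and 38.3% of the control mean from the class with fewest genes to the densest, and replicate 1 had 96.9%, 101%, 91.7% and 95.7%. The lower share in the densest windows thus remained in replicate 2, and in replicate 1 the shares away from gaps had no such order. Each class rests on 14 to 27 windows, and between the controls alone replicate 2 had 110%, 84.6%, 112% and 92.3% of the borders of replicate 1 in the 4 classes. On the other 17 autosomes replicate 2 had 94.6%, 86.0%, 73.4% and 70.3% of the control mean in the same classes, and replicate 1 had 99.7%, 97.5%, 91.3% and 94.9%.

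Some single windows are given as examples. Chromosome 22 from 10 to 15 Mb, with no coding gene, had 15 borders in every library. No library had a border from 0 to 10 Mb, and gaps took 12.1 and 11.9 Mb of this chromosome in the controls. The equal counts are therefore not read as a trait of sequence without genes. Chromosome 16 from 65 to 70 Mb, with 97 coding genes including CTCF and CDH1, had 10 and 11 borders in shLUC, 5 in shHNRNPU replicate 1 and 2 in replicate 2. Chromosome 17 from 5 to 10 Mb, with 129 genes, had 7 and 6 in shLUC, 8 in replicate 1 and 1 in replicate 2. Chromosome 19 from 35 to 40 Mb, with 151 genes, had 8 and 3 in shLUC, 8 in replicate 1 and 1 in replicate 2. Chromosome 19 from 5 to 10 Mb, with 123 genes, went the other way. It had 2 and 1 in shLUC, 1 in replicate 1 and 3 in replicate 2. The other windows above both controls in replicate 2 were 3 on chromosome 16. The window of chromosome 16 was low in both shHNRNPU libraries. Those of chromosome 17 and of chromosome 19 from 35 to 40 Mb were low in replicate 2 only. All these windows were chosen after their values were seen.

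**Figure D5:**
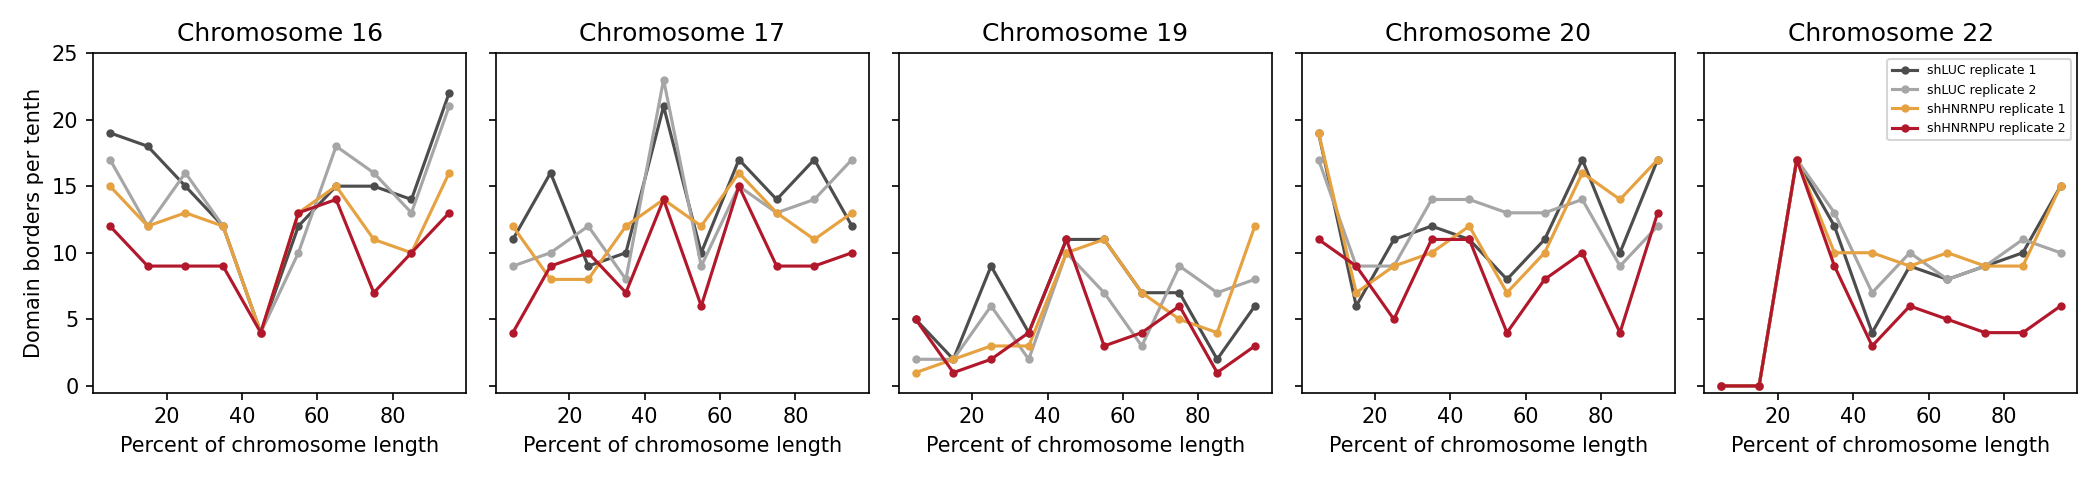
Domain borders (y axis, number) in 10 equal parts of the length of each chromosome (x axis, percent of chromosome length), 1 line per library. On chromosome 22 all 4 lines meet at 17 borders in the first part that holds any and the shHNRNPU replicate 2 line lies below both shLUC lines in every later part, while on chromosome 19 the lines cross.

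A domain was taken to merge control domains when it held 2 or more domains of a shLUC library, each with at least 80% of its length inside. Over all chromosomes 10.1% and 10.3% of the domains of shHNRNPU replicate 1 did so (against shLUC replicate 1 and 2), 17.8% and 17.1% of those of replicate 2, and 9.13% and 9.18% of the shLUC domains when set against each other. On the 5 chromosomes 49 of 436 domains of shLUC replicate 1 and 49 of 430 of shLUC replicate 2 held 2 or more domains of the other control (11.2% and 11.4%). In shHNRNPU replicate 1 it was 57 and 53 of 415, a mean of 13.3%, and in replicate 2 it was 79 and 80 of 291, a mean of 27.3%. In the reverse direction, shLUC domains that held 2 or more domains of shHNRNPU replicate 1 made up 9.17% and 11.6% (shLUC replicate 1 and 2, against 9.11% and 9.9% over all chromosomes), and those that held 2 or more of replicate 2 made up 4.59% and 3.72% (against 7.04% and 6.66%). Of the domains of shHNRNPU replicate 1, 4.58% held 2 or more of replicate 2, against 6.73% over all chromosomes. The merging domains of replicate 2 took in 54.6% and 54.9% of all shLUC domains on these chromosomes (39.5% and 38.6% over all chromosomes), and those of replicate 1 took in 30.7% and 28.8% (22.2% and 22.9%). Between the controls the shares on these chromosomes were 24.4% and 27.1%, close to those of replicate 1. Replicate 2 also held 2 or more domains of shHNRNPU replicate 1 in 74 of its 291 domains (25.4%, against 17.2% over all chromosomes), so its longer domains spanned borders of all the other libraries, the second knockdown library included.

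By chromosome the mean share in shHNRNPU replicate 1 was 16.3% on chromosome 16, 18.9% on 17, 9.80% on 19, 9.22% on 20 and 9.23% on 22. Only on 16 and 17 did it exceed the shares of both shLUC libraries against each other, which were 9.57% and 7.83% on chromosome 16 and 9.82% and 13.9% on 17. In replicate 2 it was 26.0%, 25%, 25.8%, 28.9% and 33.3% in the same order, above both controls on each. On chromosome 19 the controls themselves were far apart, at 7.84% and 20%.

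The longest merging domain of each chromosome was named, and some of these lay over long domains of the controls. In shHNRNPU replicate 1 it was 2.88 Mb on chromosome 16 (chr16:2200001-5080000, the domain with CREBBP), 2.60 Mb on 17 (chr17:19240001-21840000, with MAPK7, ULK2 and USP22), 9.80 Mb on 19 (chr19:40001-9840000), 2.32 Mb on 20 (chr20:34200001-36520000) and 1.56 Mb on 22 (chr22:40400001-41960000). The one on chromosome 19 held 280 coding genes, among them STK11, a tumour suppressor kinase, and DOT1L, a histone H3 lysine methyltransferase. It spanned 4 domains of shLUC replicate 1, 2 of shLUC replicate 2 and 3 of shHNRNPU replicate 2. Most of that stretch already lay in 1 domain in each control, of 6.72 Mb (chr19:2480001-9200000) and 7.96 Mb (chr19:1880001-9840000). The chromosome 22 domain held 31 coding genes, with EP300, which encodes the acetyltransferase p300, and the lipid regulator SREBF2 among them.

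In shHNRNPU replicate 2 these domains were longer on 4 of the 5 chromosomes. On chromosome 16 it was chr16:27560001-33200000, 5.64 Mb with 127 coding genes from KATNIP to TP53TG3C and it held 2 domains of each control. On chromosome 17 it was chr17:600001-8840000, 8.24 Mb with 217 genes from VPS53 to PIK3R6, and it held 7 and 6 control domains. On chromosome 19 it was chr19:44560001-52320000, 7.76 Mb with 272 genes, including APOE, the apolipoprotein of lipid transport, and the kallikreins, and it held 3 and 5 control domains. On chromosome 20 it was chr20:34120001-38440000, 4.32 Mb with 64 genes, among them the kinase gene SRC and the imprinted pair NNAT and BLCAP, and it held 5 and 6. On chromosome 22 it was chr22:18720001-23080000, 4.36 Mb with 67 genes, among them TBX1, DGCR8 and CRKL of the 22q11.2 deletion region, and it held 5 and 4. The chromosome 17, 20 and 22 domains also held 9, 4 and 7 domains of shHNRNPU replicate 1, and those on chromosomes 16 and 19 held 3 and 5. On chromosomes 16 and 22 the longest control domains lay at the same place. They were chr16:27480001-30960000 and chr16:27560001-31480000 (3.48 and 3.92 Mb), and chr22:19960001-23120000 and chr22:20240001-22680000 (3.16 and 2.44 Mb). On chromosomes 17, 19 and 20 the longest control domains lay elsewhere.

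The 20 named gene clusters and the 7 runs of ZNF genes on chromosome 19 (many encode KRAB zinc finger repressors) were described by the borders inside them. Over the 27 there were 25 and 37 borders in the controls, 30 in shHNRNPU replicate 1 and 22 in replicate 2. The controls agreed on the number for only 9 clusters. Both shHNRNPU libraries were below both controls at 2: the HOXB genes (1 and 1 borders in shLUC, 0 and 0 in shHNRNPU), which pattern the body axis, and the CEACAM and PSG genes (2 and 3 against 1 and 1), which encode adhesion and placental glycoproteins. The HOXB genes lay in domains of 0.88 Mb and 0.40 Mb in shHNRNPU replicate 1 and 2. The domain of replicate 2 began at 48520001, within 1 bin of the cluster start at 48528526, so its count of 0 depends on the cluster edge. None of the 9 lost borders of chromosome 17 away from gaps lay in this cluster. Replicate 1 was below both controls at 2 clusters and above both at 2, and replicate 2 was below both at 4 and above both at 1. No share over other gene clusters was counted beside these, and nothing is read from them.

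Several clusters had the same number of borders in every library. The alpha globin genes lay in 1 domain of 0.76, 0.76, 0.68 and 0.76 Mb (shLUC replicate 1 and 2, then shHNRNPU replicate 1 and 2). A single border ran through FOXF1 to FOXL1 and another through TBX2 to TBX4, both sets of developmental transcription factors, in all 4 libraries. The APOBEC3 cytidine deaminases had no border in any library, in domains of 0.72, 0.84, 0.48 and 1.32 Mb. The ZNF genes from ZNF628 to ZNF446 near the end of chromosome 19 had 1 and 4 borders in shLUC, 5 in replicate 1 and 0 in replicate 2, where 1 domain of 3.76 Mb held all 60. There the controls also differed from each other.

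For the 23 single genes on the list of chromatin and pluripotency regulators, 21 lay in a domain in all 4 libraries. Over all 16576 coding genes in a domain in every library, the domain was longer in shHNRNPU replicate 2 than in both controls for 55.1% and shorter for 17.2%, and in replicate 1 for 30.2% and 26.8%. On the 5 chromosomes alone it was longer in replicate 2 for 70.4% and in replicate 1 for 33.0%. Among the 21 it was longer in replicate 2 for 20 and shorter for 0, and in replicate 1 longer for 5 and shorter for 8. Most coding genes of these chromosomes thus lay in a longer domain in replicate 2, and nothing particular to the listed genes is read from their count. The median length of these domains was 920 and 800 kb in shLUC, 960 kb in replicate 1 and 2240 kb in replicate 2. Some of the 21 share a domain, so they are not separate observations. In none of them was the domain identical in all 4 libraries.

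CTCF, the border protein itself, was in a domain of 480 and 240 kb in the controls, 160 kb in shHNRNPU replicate 1 and 5040 kb in replicate 2. The last, chr16:66360001-71400000, held 112 coding genes, CDH1 (E-cadherin, the adhesion protein of epithelial and pluripotent cells) among them. CDH1 itself was in domains of 680 and 640 kb in shLUC, 1680 kb in replicate 1 and 5040 kb in replicate 2. CREBBP was in 920 and 800 kb in shLUC, 2880 kb in replicate 1 and 4280 kb in replicate 2. CDH1 and CREBBP thus had longer domains in both shHNRNPU libraries, and CTCF in replicate 2 only. Domains longer in shHNRNPU replicate 1 than in both controls were also found for CBX2, a chromobox subunit of Polycomb complex PRC1 (400 and 280 kb against 1320 and 2040 kb), and EP300 (800 and 360 kb against 1560 and 1280 kb).

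DNMT3B, the de novo DNA methyltransferase of pluripotent cells, was in 1400 and 680 kb in shLUC, 720 kb in replicate 1 and 2240 kb in replicate 2, and the last domain also held BCL2L1, ID1 and ASXL1. SALL4, a pluripotency transcription factor, was in 520 and 440 kb in shLUC, 480 kb in replicate 1 and 1160 kb in replicate 2. DNMT1, the maintenance methyltransferase, and SMARCA4, the BRG1 remodeller, shared 1 domain in each library, of 2800 and 1800 kb in shLUC, 1760 kb in replicate 1 and 5240 kb in replicate 2. In these domains replicate 1 was within or just below the range of the controls and replicate 2 was above it. The exception among the 21 was SALL1, a transcription factor of kidney and limb development, whose domain of 840 kb in replicate 2 lay between the 760 and 1080 kb of the controls; replicate 1 had 960 kb. SUZ12, a subunit of Polycomb complex PRC2, was in no domain in replicate 1, and CHEK2, a checkpoint kinase, in none in shLUC replicate 1.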

How the data were processed

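Hi-C libraries of H1 cells (4, from 2 groups of 2 replicates, grouped by the sample titles) were compared. For each library the authors deposited 3 interval lists (domains, boundary regions and gaps; 12 files) that give positions alone, without scores, read counts or contact matrices. The submitters' processing notes name Bowtie2 and hg38; the domain caller, matrix normalization and their settings are not given in the sources used here, and each can alter the number and length of domains. Depth is unknown, so no interval or floor that needs it is given, and Wilson intervals cover counting error only. All positions were multiples of 40 kb, taken as the bin, and on the 5 chromosomes the 3 lists covered every bin once. Positions are printed counting from 1; a border is the last base before it.

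Borders (unique domain starts and ends) were matched one to one within 1 bin. Gene positions came from RefSeq GRCh38.p14, whose coordinates fit the gaps and ends of the files; genes of alternate and unplaced scaffolds were left out. Genes were counted by midpoint, single genes placed by their start site where the promoter table had one and otherwise by midpoint, and a cluster was the largest run of its genes with no space over 1 Mb (ZNF runs of 10 or more genes). Positions named per chromosome were the lost and gained border farthest from the other group and more than 3 bins from a gap, the longest domain of each shHNRNPU library holding 2 or more domains of both shLUC libraries, and the border in the same bin in all 4 libraries with the longest shLUC replicate 1 neighbours. The chromosomes, the lists and the measures were chosen with earlier results of these data known. No test of the groups was made. With 2 libraries a group, the SD measures only the spread between these samples, which may be technical. The calling of lost, gained and merged intervals was run on simulated libraries made from shLUC replicate 1. Well separated borders were removed or added in identical shHNRNPU copies. That checks the calling rules and does not measure their error in real libraries, which differ far more. Alternatives covered short domains, gaps, matching and absence distances, overlap, each library and each chromosome left out. Python 3.11.15, numpy 2.4.6, pandas, scipy and matplotlib were used. A few genes and the results that need them are not reported here.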

Additional observations from a re-analysis of the deposited data

How the results depend on the processing

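The domain calls carry no score or depth, and 2 libraries a group leave the spread poorly known. None of the 34 alternatives to the 3 signed differences turned a direction, and 19 of 62 alternatives in all moved a value. A signed difference counted as moved only if it shifted by more than the SD within the groups. Leaving out 1 library cannot shift it that far. The count of moved values therefore does not measure how far these 3 depend on shHNRNPU replicate 2. With 1 library left out, the difference in domain number (-80) ran from -142 to -18. That in median length (100 kb) ran from 20 to 180 kb and that in boundary regions (-14) from -26.5 to -1.50. The values near 0 were those without shHNRNPU replicate 2. Without 1 chromosome these 3 ran from -73 to -54, from 90 to 140 kb and from -16 to -6. Shared shLUC borders were found in shHNRNPU replicate 1 at 60.1% in the same bin and 83.0% within 2 bins, and in replicate 2 at 51.0% and 66.8%, or 53.3% away from gaps. Lost borders numbered 16 with same-bin matching and 52 with none within 1 bin; gained borders 16 with none within 1 bin and 1 within 5 bins. With a library left out, lost borders ran from 49 (without shHNRNPU replicate 2) to 104 (without shHNRNPU replicate 1) and gained from 12 to 48, since fewer libraries then have to match. With 95% of the length inside, 9.40% of domains in shHNRNPU replicate 1 and 21.6% in replicate 2 merged control domains, against 7.11% and 9.07% within shLUC. No paired analysis was possible because none of the results comes from a test; between libraries of the same number the domain numbers differed by -21 and -139.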
